A study of Mus musculus with 6 samples.

Results

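The genes described here move calcium into the cytosol, hold it in stores and clear it again. They were Slc8a1 and Slc8b1 (sodium-calcium exchangers), Atp2a2 and Atp2a3 (pumps of the endoplasmic reticulum), Atp2b1 and Atp2b4 (pumps of the plasma membrane), Itpr1 and Itpr2 (IP3 receptors), Orai1 (the store-operated channel) and Stim1 (its sensor in the endoplasmic reticulum). All probe sets annotated to exactly 1 of these 10 genes were taken, which gave 27 of the 45037 probe sets tested and 9 of the 18193 genes that had one. No probe set was annotated to Itpr1 alone, so it is not analysed here. RAW264.7 is an established mouse line of monocytic cells that can turn into osteoclast-like cells when RANKL, the main osteoclast cytokine, is added. The study asked how such cells respond to low extracellular sodium, and exposed them for 24 hours to normal sodium (137 mmol/l, 3 arrays) or low sodium (120 mmol/l, 3 arrays). Cells were grown with 10% fetal bovine serum, and mannitol was added to the low-sodium medium so that its osmolality matched at 290 mOsm/l. The protocol names 2 cytokines, M-CSF (written M-SCF there, 10 ng/ml) and RANKL (30 ng/ml), beside the low-sodium medium and does not settle whether the normal-sodium cells had them too, so differences are between media as labelled. Of 4 biological replicates that the labels describe in each medium, 3 were analysed here.

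When receptors on a macrophage or osteoclast precursor activate phospholipase C, the IP3 it makes opens IP3 receptors and releases calcium from the endoplasmic reticulum. STIM proteins sense the emptied store and open ORAI channels in the plasma membrane, SERCA pumps refill the store, and plasma membrane pumps and sodium-calcium exchangers return calcium to the outside. Exchangers draw on the sodium gradient, whereas the pumps draw on ATP. Calcium oscillations of this kind drive calcineurin and NFATc1, the factor that sets osteoclast genes in motion.

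In low sodium 2 genes were called higher by a limma fit with a term for replicate 3, described below. They were Atp2b1, the gene of the plasma membrane calcium pump PMCA1, and Orai1, the gene of the channel pore. A plain limma fit of the 2 groups called no member. There the brightest Orai1 probe set (unadjusted p = 0.0987) came behind a probe set each of Stim1 (0.0740) and Atp2a2 (0.0678), both lower in low sodium. All 3 probe sets of Atp2b1 were higher in low sodium at each replicate number. Their group means differed by 1.36-fold to 1.52-fold, and the brightest probe set of Orai1 was 1.43-fold higher by group means. Stim1 was 1.57-fold lower by its brightest probe set without passing any test used here, and its other probe set did not follow. The store pumps, Itpr2 and the mitochondrial exchanger gene Slc8b1 did not pass a test in either direction, and the plasma membrane exchanger gene Slc8a1 was too dim to be read.

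These calls depend on the model. Values are log2 of the intensity plus 1 throughout, and differences are low minus normal sodium on that scale. A plain limma fit of the 2 groups on all 6 arrays called 0 of the 27 probe sets (adjusted p between 0.778 and 0.998), as it called 0 of all 45037 (0%). At an unadjusted p under 0.05 it had 1 of the 27, against 6.37% of all. Replicate 3 differed from replicates 1 and 2 in both media: the mean over 24 probe sets for spiked-in labelling controls was 8.36 there and 10.21 on the other 4 arrays. A limma fit with a term for replicate 3 and a variance prior that follows the intensity (called the replicate 3 fit below) called 4 of the 27 higher and 0 lower, against 2.07% of all probe sets higher and 2.01% lower. The 4 were the 3 of Atp2b1 and 1 of Orai1, so they stand for 2 of 9 genes (22.2% by the brightest probe set, against 3.09% of all genes higher and 2.92% lower). That fit was chosen with its counts in view, and the members with earlier results of these data known. The shares are therefore a description and no test of an excess. With a constant prior the fit with the replicate 3 term called 0 of the 27. A fit with each replicate number as a block and the same prior as the replicate 3 fit also called 0, against 1.56% of all probe sets. The verbs rose and fell below refer to the replicate 3 fit. A probe set is called dim where the higher of its group means lay under 5.87, the median over all probe sets, and 20 of the 27 were not dim. All 4 calls were among these 20. Of all 23921 probe sets that were not dim, 927 rose and 895 fell. The difference between the media had a median of 0.03 over the 27 probe sets (0.19 in replicates 1 and 2, -0.11 in replicate 3) and of -0.02 over all probe sets. Whether RNA came from more cells or from more RNA per cell cannot be told apart in such bulk samples.

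The labelled cell type was checked on markers. All 7 macrophage markers, among them Adgre1 and Csf1r, were above the dim limit, and so were 6 of 7 osteoclast markers, all but Calcr. The osteoclast marker Ocstamp was above the limit in low sodium only, with group means of 4.82 in normal and 7.58 in low sodium. Of the macrophage markers 1 rose, Adgre1, from 11.93 ± 0.21 to 12.90 ± 0.47 (SD, n = 3, adjusted p = 0.00394 in the replicate 3 fit). Of the 7 osteoclast markers 4 rose (Ctsk, Mmp9, Dcstamp and Ocstamp). The summed intensity of all 7 ran from 652 to 1864 in normal sodium and from 1318 to 4789 in low sodium. The part of either in the differences of the calcium genes was not tested. Above the same limit were also 1 of 4 measured T cell markers, 1 of 2 of B cells, 1 of 2 of fibroblasts and osteoblasts and 2 of 3 of epithelia. In normal sodium the epithelial marker Epcam (7.82) was brighter than the osteoclast marker Acp5 (6.89). The limit alone therefore does not separate cell types. Markers of T cells, B cells, fibroblasts and epithelia rose or fell in 0 cases.

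The windows around the start sites of Atp2b1 and Orai1, the members that rose, are shown with that of Stim1, the partner of Orai1 that was not called. Each holds 250 bases before and 50 after a RefSeq start in assembly GRCm38.p6, and 7 of the 10 genes had such a window. Capitals mark matches on either strand to the GC box GGGCGG, the NFAT core GGAAA, the AP-1 motif TGANTCA or the E-box CACGTG. Atp2b1 has windows at chr10:98914392-98914691 and chr10:98914902-98915201 (both plus strand). The window of Orai1 lies at chr5:123014824-123015123 (plus strand) and that of Stim1 at chr7:102267569-102267868 (plus strand).
Atp2b1, first window: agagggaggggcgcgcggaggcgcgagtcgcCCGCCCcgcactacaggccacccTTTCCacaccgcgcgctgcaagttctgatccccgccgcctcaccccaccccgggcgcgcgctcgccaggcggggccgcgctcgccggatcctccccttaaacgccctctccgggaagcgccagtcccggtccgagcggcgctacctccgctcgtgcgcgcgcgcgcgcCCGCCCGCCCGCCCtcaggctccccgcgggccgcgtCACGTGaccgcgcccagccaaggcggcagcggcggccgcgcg
Atp2b1, second window: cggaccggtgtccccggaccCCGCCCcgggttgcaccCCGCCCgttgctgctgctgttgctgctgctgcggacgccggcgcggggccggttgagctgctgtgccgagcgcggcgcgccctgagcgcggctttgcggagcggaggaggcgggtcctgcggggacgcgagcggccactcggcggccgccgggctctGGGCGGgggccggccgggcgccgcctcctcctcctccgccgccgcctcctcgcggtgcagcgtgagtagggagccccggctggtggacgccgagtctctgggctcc
Orai1: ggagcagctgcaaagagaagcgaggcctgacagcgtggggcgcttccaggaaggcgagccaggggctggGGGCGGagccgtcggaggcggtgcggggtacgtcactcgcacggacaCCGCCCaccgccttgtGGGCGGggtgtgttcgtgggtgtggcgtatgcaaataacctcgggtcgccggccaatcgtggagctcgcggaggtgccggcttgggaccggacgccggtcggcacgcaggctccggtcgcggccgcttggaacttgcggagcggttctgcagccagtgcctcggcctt
Stim1: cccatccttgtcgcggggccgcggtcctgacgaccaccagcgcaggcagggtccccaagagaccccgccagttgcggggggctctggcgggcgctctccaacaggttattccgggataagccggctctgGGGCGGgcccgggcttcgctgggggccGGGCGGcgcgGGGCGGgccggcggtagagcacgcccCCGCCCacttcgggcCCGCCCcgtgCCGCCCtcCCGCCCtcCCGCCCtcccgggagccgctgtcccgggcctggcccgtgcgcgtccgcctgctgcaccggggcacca

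All 4 windows were rich in G and C, at 79.3% in both of Atp2b1, 70.3% in Orai1 and 78.7% in Stim1, against a median of 52.7% over all windows. GC boxes numbered 4 and 3 in Atp2b1, 3 in Orai1 and 8 in Stim1, and 35.7% of all 32851 windows held at least 1. The NFAT core occurred once in the first Atp2b1 window (61.3% of all windows held it), beside 1 E-box (7.15% of all), and the AP-1 motif in 0 of the 4 (7.81% of all). Letters found or missing in these windows are a description and say nothing about binding.

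**Figure D1:**
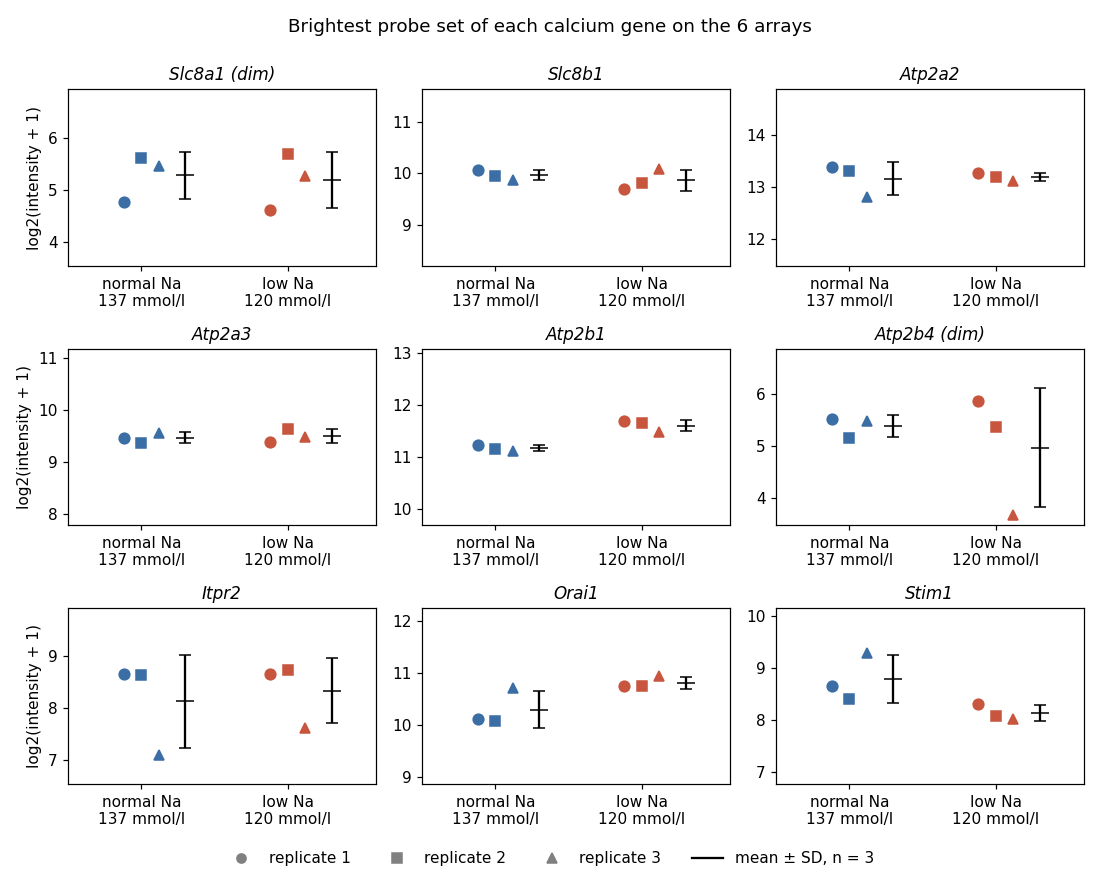
Log2(intensity + 1) of the brightest probe set of each of the 9 measured genes (vertical axis, every panel of equal span) on the 3 normal-sodium arrays (blue, 137 mmol/l) and the 3 low-sodium arrays (red, 120 mmol/l); shapes mark the replicate number and bars the mean ± SD of 3 arrays. The groups do not overlap in Atp2b1 and Orai1, which are higher in low sodium, and in Stim1, which is lower, while Itpr2 varies more with the replicate number than with the medium.

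Calcium entry was represented by Orai1 and Stim1. Orai1 had 2 probe sets. The brighter one (1424990_at) stood at 10.11, 10.07 and 10.72 on the normal-sodium arrays of replicates 1, 2 and 3 and at 10.74, 10.74 and 10.95 on the low-sodium arrays. Every low-sodium array was above every normal-sodium array, although normal-sodium replicate 3 came close to the lower low-sodium values. The group means were 10.30 ± 0.36 and 10.81 ± 0.12 (SD, n = 3), and Orai1 rose by 0.51 ± 0.10 (SE, adjusted p = 0.0362 in the replicate 3 fit, 0.815 in the plain fit), higher in low sodium at 3 of 3 replicate numbers. The difference was 0.64 and 0.67 in replicates 1 and 2 and 0.24 in replicate 3. The dimmer probe set of Orai1 (1424989_at) had group means of 7.03 ± 0.33 and 7.41 ± 0.23, and its difference of 0.38 ± 0.23 had the same direction without passing (adjusted p = 0.466). In exact two-sided permutation tests over the 6 arrays the 2 probe sets had p = 0.1 and p = 0.2, where a design of 3 against 3 arrays cannot go below 0.1.

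Stim1 encodes the store sensor that opens ORAI channels. Its brighter probe set (1448320_at) read 8.65, 8.40 and 9.29 in normal sodium and 8.30, 8.07 and 8.02 in low sodium, so the groups did not overlap and normal-sodium replicate 3 was the highest array. The difference of -0.65 ± 0.21 did not pass (adjusted p = 0.158 in the replicate 3 fit, 0.795 in the plain fit). It was -0.34 and -0.33 in replicates 1 and 2 against -1.27 in replicate 3. In the plain fit without normal-sodium replicate 3 it was -0.39. The other probe set of Stim1 (1436945_x_at) read 7.84 ± 0.19 and 7.83 ± 0.23, a difference of -0.01 with a 95% interval from -0.60 to 0.57 in the plain fit. The 2 probe sets of Stim1 therefore gave different sizes, and no single value for the gene can be given.

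The other store-operated entry genes did not all go the way of Orai1. Of 8 measured genes of that list 0 rose and 1 fell. Orai2, a second channel subunit gene, read 9.33, 9.22 and 9.00 in normal sodium and 8.74, 8.70 and 8.24 in low sodium. It fell by 0.63 on the log2 scale (SE 0.12, adjusted p = 0.0277) and was lower at 3 of 3 replicate numbers. Orai3, the remaining ORAI gene, had a difference of -0.42 ± 0.13 that did not pass (adjusted p = 0.138), with -0.25 in replicates 1 and 2 and -0.76 in replicate 3. Stim2, the second store sensor gene, had one of 0.02, and Saraf, whose product turns STIM1 off again, one of 0.18, and neither passed. Cracr2b, a cytosolic regulator of ORAI channels, differed by 0.86 ± 0.47, from 2.06 in replicate 2 to 0.23 in replicate 3.

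**Figure D2:**
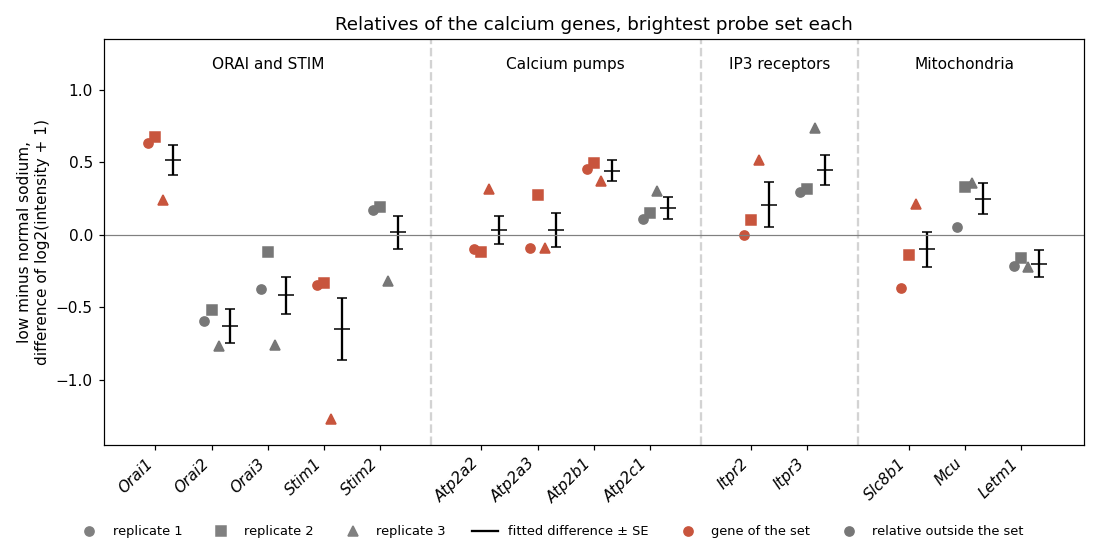
Low minus normal sodium difference of log2(intensity + 1) (vertical axis) for the brightest probe set of genes of the set (red) and of relatives from the other lists (gray), at each replicate number (shapes) and as fitted with its SE from the replicate 3 fit (black). Orai1 lies at 0.51 and Orai2 at -0.63, with all 3 replicate numbers on opposite sides of 0, whereas Atp2b1 is the 1 calcium pump shown that passed, at 0.44.

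The stores were represented by the SERCA pumps and IP3 receptors. Atp2a2 encodes SERCA2, the widely expressed pump that refills the endoplasmic reticulum. The brightest of its 6 probe sets (1427250_at) read 13.38, 13.31 and 12.80 in normal sodium and 13.28, 13.20 and 13.12 in low sodium, and the groups overlapped. The difference was 0.03 ± 0.10 (adjusted p = 0.914), negative in replicates 1 and 2 and 0.32 in replicate 3, with a 95% interval from -0.57 to 0.63 in the plain fit. Another 3 bright probe sets (1416551_at, 1452363_a_at and 1427251_at) differed by 0.11 to 0.19 without passing. A probe set of Atp2a2 (1437797_at) stood against these, at 7.31, 7.06 and 7.14 in normal sodium and 6.61, 6.79 and 5.54 in low sodium. Its groups did not overlap, but the difference of -0.85 ± 0.31 did not pass (adjusted p = 0.202) and was -1.60 in replicate 3 alone. The remaining probe set (1443551_at) was dim and also lower in low sodium at each replicate number. Its difference of -0.565 ± 0.61 did not pass (adjusted p = 0.720), and its groups overlapped. Which transcript form each probe set reads was not tested.

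Atp2a3 encodes SERCA3, a further SERCA form found in blood cells. It read 9.47, 9.36 and 9.56 in normal sodium and 9.38, 9.64 and 9.47 in low sodium (1421129_a_at). The difference was 0.03 ± 0.11 (adjusted p = 0.930), with a 95% interval from -0.47 to 0.53 in the plain fit. Its second probe set (1450124_a_at) also differed by 0.03. This plain-fit interval and that of Atp2a2 hold a difference of 0.44, the size found in the brightest Atp2b1 probe set. Atp2b1 was called by the replicate 3 fit, however. There the SE was 0.11 for Atp2a3 and 0.095 for Atp2a2, around differences of 0.03 that lay well below 0.44.

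Itpr2 encodes IP3 receptor type 2, a release channel of the store. Its brightest probe set (1427287_s_at) read 8.65, 8.63 and 7.08 in normal sodium and 8.65, 8.73 and 7.60 in low sodium. Both replicate 3 arrays were far below the other 4, and at replicates 1 and 2 the media differed by 0.00 and 0.10. The fitted difference was 0.21 ± 0.16 (adjusted p = 0.584). Over the 6 probe sets of Itpr2 the differences ran from -0.54 to 0.37, 3 positive and 3 negative, and 0 passed. One of them (1444418_at) had groups that did not overlap, at 6.30 ± 0.14 in normal and 6.67 ± 0.05 in low sodium, with a difference of 0.37 ± 0.26 (adjusted p = 0.558).

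Clearance was represented by the plasma membrane pumps and the exchangers, 4 genes of which Atp2b1 alone rose. Atp2b1, whose start windows are printed with those of Orai1 and Stim1, encodes PMCA1, the housekeeping calcium pump of the plasma membrane. The brightest probe set (1428937_at) read 11.23, 11.15 and 11.11 in normal sodium and 11.68, 11.64 and 11.48 in low sodium, and the groups did not overlap. Atp2b1 rose by 0.44 ± 0.07 there (SE, adjusted p = 0.0171), from 11.16 ± 0.06 to 11.60 ± 0.11 (SD, n = 3). The second probe set (1428936_at) read 10.54, 10.63 and 11.12 in normal and 11.22, 11.06 and 11.57 in low sodium. Both of its replicate 3 arrays were higher than the others of their group, so the groups overlapped, yet low sodium was higher at each replicate number and the probe set rose by 0.52 ± 0.08 (adjusted p = 0.0147). The third (1452969_at) read 9.69, 9.28 and 9.68 in normal and 10.02, 10.06 and 10.40 in low sodium, again without overlap, and rose by 0.61 ± 0.12 (adjusted p = 0.0380).

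Across the 3 probe sets of Atp2b1 and the 3 replicate numbers the difference was positive 9 of 9 times, from 0.33 to 0.77. Probe sets of 1 gene read the same RNA on the same arrays and are no replicates of each other. In the plain fit the adjusted p was 0.794, 0.817 and 0.778, and the exact two-sided permutation p was 0.1, 0.2 and 0.1. With the replicate number as a block in place of the replicate 3 term, and the same trended prior, limma called none of the 27 probe sets: the adjusted p was 0.0733, 0.0631 and 0.0875 for Atp2b1 and 0.111 for the brighter probe set of Orai1. Without either replicate 1 or either replicate 2 array the brightest probe set of Atp2b1 lost its call (adjusted p between 0.0841 and 0.117), and that of Orai1 did too (0.146 to 0.172), with differences of 0.41 to 0.45 and 0.47 to 0.48. When replicate 3 was left out and the trended prior kept, 3 of the 27 rose, against 4.15% of all probe sets, namely the 2 brighter probe sets of Atp2b1 and the brighter one of Orai1.

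Atp2b4 encodes PMCA4, a second plasma membrane pump. Its 1 probe set was dim, at 5.53, 5.15 and 5.48 in normal sodium and 5.86, 5.37 and 3.68 in low sodium. Replicates 1 and 2 were slightly higher in low sodium and replicate 3 differed by -1.80. The difference of -0.42 ± 0.57 became 0.23 in the plain fit without low-sodium replicate 3.

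Slc8a1 encodes NCX1, which trades intracellular calcium for extracellular sodium and can run in reverse. All 4 of its probe sets were dim, and no array read above 5.70. The brightest (1425817_a_at) read 4.78, 5.62 and 5.46 in normal sodium and 4.61, 5.70 and 5.28 in low sodium, a difference of -0.09 ± 0.51. The differences of the 4 ran from -0.62 to 0.32, 2 of them positive, and signals this low give no usable level.

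Slc8b1 encodes NCLX, which moves calcium out of mitochondria in exchange for sodium. It had 1 probe set (1417811_at), at 10.07, 9.95 and 9.88 in normal sodium and 9.70, 9.81 and 10.09 in low sodium. The difference was -0.10 ± 0.12 (adjusted p = 0.754), negative at replicates 1 and 2 and 0.21 at replicate 3, with a 95% interval from -0.63 to 0.43 in the plain fit. Slc8b1 was thus bright enough to be read, and its groups overlapped.

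**Figure D3:**
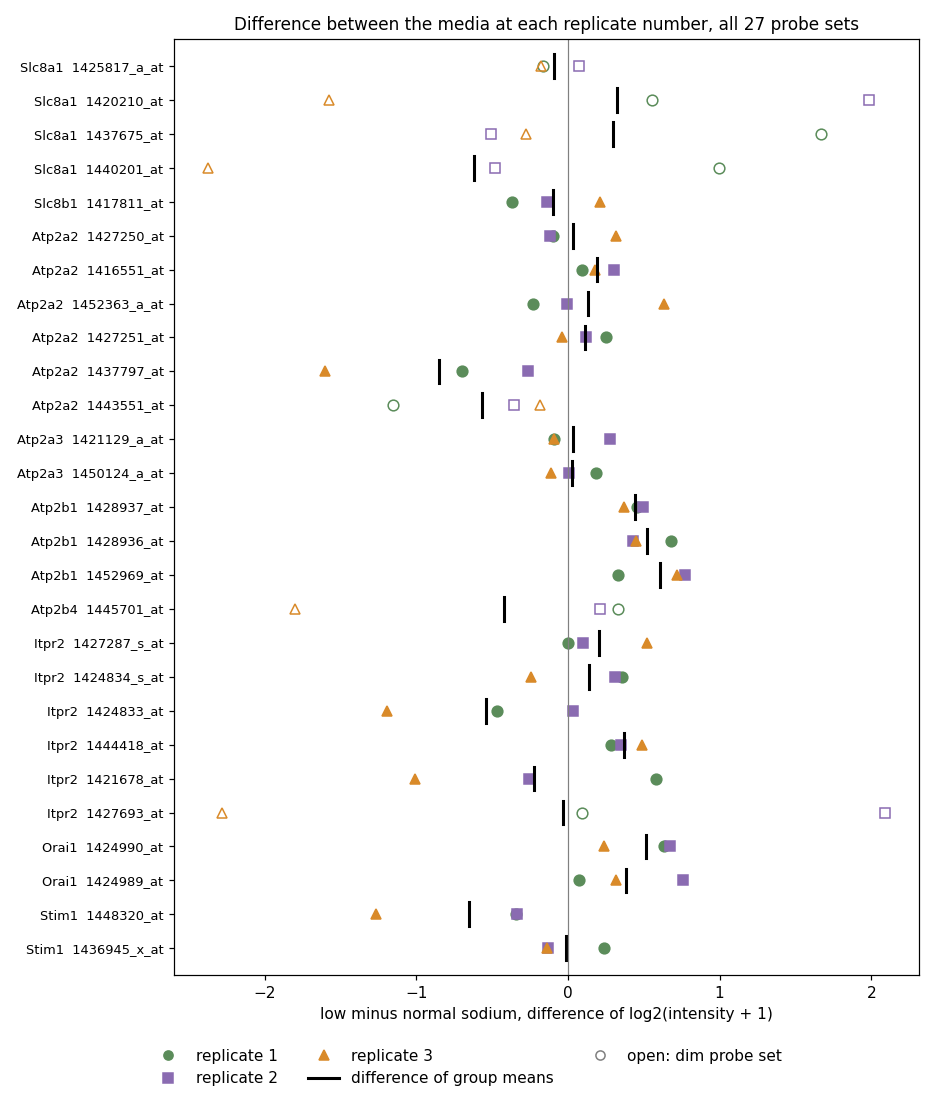
Low minus normal sodium difference of log2(intensity + 1) (horizontal axis) at replicates 1, 2 and 3 for all 27 probe sets (rows), with the difference of group means as a black bar; open symbols are the 7 dim probe sets. The 3 probe sets of Atp2b1 and the 2 of Orai1 lie to the right of 0 at each replicate number, and the dim probe sets of Slc8a1 scatter widely on both sides.

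Of the 27 probe sets, 8 were higher in low sodium at all 3 replicate numbers (17.4% of all probe sets were) and 3 lower (18.7%). Groups did not overlap in 4 that were higher (6.97% of all) and 2 that were lower (7.88% of all). Several of these probe sets read the same gene. By the brightest probe set, 3 of 9 genes were higher at all 3 replicate numbers and 1 lower, against 3642 and 3763 of all 18193 genes. Itpr2 counts among these 3 genes and the 8 probe sets, although it differed by only 5.04e-05 at replicate 1. Groups did not overlap in 2 genes that were higher and 1 that was lower, against 1535 and 1651 of all. These counts are a description.

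The rest of the calcium pathway was read from 6 further lists with 1 probe set per gene, 61 of 70 entries measured. In the replicate 3 fit 2 of the 61 rose and 2 fell (3.28% each), close to the 3.09% higher and 2.92% lower over all genes. With a replicate block and the same prior 1 of these 4, P2rx4, passed (adjusted p = 0.0207). The 2 that rose belong to the list of 14 other channels. P2rx4, an ATP-gated channel that passes calcium, read 9.47, 9.35 and 10.18 in normal sodium and 10.24, 10.18 and 11.10 in low sodium. It rose by 0.84 ± 0.09 (adjusted p = 0.00379), and was the 1 of these 4 genes that kept its call whichever array was left out (adjusted p up to 0.0403). Without low-sodium replicate 3 the difference was 0.80 in the replicate 3 fit. The plain difference of group means was then 0.55, with normal-sodium replicate 3 still in its mean. Trpv2, a cation channel of macrophages, rose by 0.39 ± 0.08 (adjusted p = 0.0372), from 11.21, 11.34 and 11.38 to 11.58, 11.61 and 11.89. Trpv4, a channel sensitive to osmotic swelling, differed by 0.83 ± 0.31 without passing (adjusted p = 0.222), and its groups overlapped. Its difference was 0.53 over replicates 1 and 2, and 0.47 in the plain fit without normal-sodium replicate 3.

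Among 12 genes of IP3 production and store release 0 rose and 1 fell. Itprip, whose product binds IP3 receptors, read 8.03, 7.92 and 7.72 in normal sodium and 6.89, 7.01 and 6.35 in low sodium, and fell by 1.14 on the log2 scale (SE 0.20, adjusted p = 0.0208). Itpr3, the type 3 receptor gene, had a difference of 0.45 ± 0.10 just short of the threshold (adjusted p = 0.0553), with both replicate 3 arrays low at 9.84 and 10.57 against 11.22 to 11.55 on the others. Plcb3, a phospholipase C gene, had one of -0.49 ± 0.12 (adjusted p = 0.0643).

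No gene passed among 11 other pumps and exchangers, 6 genes of mitochondrial calcium uptake or 10 of calcium binding, where limma's unadjusted p in the plain fit was under 0.05 for 0 of them. Atp2c1, the calcium and manganese pump of the Golgi, differed by 0.19 ± 0.08, Slc24a3, a potassium-dependent sodium-calcium exchanger gene, by 0.66 ± 0.31 and the plasma membrane pump gene Atp2b3 by 0.27 ± 0.35. Mcu, the pore of the mitochondrial uniporter, differed by 0.25 ± 0.11, its regulator Micu2 by 0.26 ± 0.08, and Letm1, a mitochondrial inner membrane protein gene, by -0.20 ± 0.09. The store and Golgi calcium binders Nucb2, Sdf4 and Rcn1 differed by -0.32 ± 0.11, 0.30 ± 0.09 and 0.26 ± 0.11. In the plain fit without low-sodium replicate 3 the differences of Micu2, Nucb2 and Sdf4 were 0.08, -0.13 and 0.06. Normal-sodium replicate 3 stayed in its group mean there, and over replicates 1 and 2 alone the differences were 0.19, -0.18 and 0.19. List medians were -0.06 for store-operated entry, 0.18 for other channels, 0.16 for IP3 production and release, 0.07 for pumps and exchangers, 0.13 for mitochondrial uptake and -0.06 for calcium binding, against -0.01 over all 18193 genes.

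Among member probe sets that were not dim, 1452969_at of Atp2b1 had the smallest p in the plain fit (adjusted p = 0.778). The genes most alike in pattern over the 6 arrays were Tmem241, Zfp28 and Capn5, with Pearson r of 0.992, 0.992 and 0.991. These are the highest of 20068 candidate probe sets, of which 92 had r over 0.95, and with 6 arrays that share depth and replicate number the values describe likeness only.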

How the data were processed

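Total RNA from 6 RAW264.7 cultures (5 µg each) was biotin-labelled and put on Affymetrix mouse arrays, per the labels' protocols. The deposited values were linear intensities per probe set, made with Partek per the submitters' processing notes, with no version; how probes were summarised: not given in the sources used here. Every array had a mean of 499.8 between its 2nd and 98th percentiles, and median intensities ran from 47.8 to 74.5. Precision is limited by the number of arrays.

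Log2 was taken of the intensity plus 1, and 64 control probe sets were left out. Of the others 34945 carried 1 gene, 932 several and 9160 none in the platform annotation. Symbols were updated through Entrez identifiers to RefSeq (GRCm38.p6), which 34741 probe sets matched, and no genome build is named by the files. The plain fit was limma 3.58.1 in R 4.3.3 (lmFit, constant eBayes prior, two-sided tests, Benjamini-Hochberg over 45037 probe sets, threshold 0.05). The replicate 3 fit added a term for replicate 3 against replicates 1 and 2 and the eBayes trend, and gives the standard errors in the text. Each gene is led by its brightest probe set (mean of 6 arrays), the others following, and from each other list up to 3 genes with the smallest p that were not dim are named, with Stim2 and Saraf beside their relatives. The members and lists were chosen with earlier results of these data known. Alternatives covered scaling, filters, priors, weights, replicate terms and left-out arrays. The replicates are called biological in the labels; p-values measure the spread between these arrays.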

Additional observations from a re-analysis of the deposited data

How the results depend on the processing

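The plain fit called 0 probe sets, 0 members and 0 other calcium genes. Over all probe sets the count became 1 with a pseudocount of 16, 2 with a filter at the 50th percentile, 33 with a trended prior, 1 with array weights, 703 with the replicate block and a trended prior and 1840 in the replicate 3 fit, and it stayed at 0 in the other planned settings, leaving out any 1 array among them. Members called were 4 and other calcium genes 4 in the replicate 3 fit. With the replicate block they were 0 and 0, and with the block and a trended prior 0 and 1. Deviations of same-numbered arrays correlated at 0.08, 0.06 and 0.20 over all probe sets and at 0.29, 0.28 and 0.47 over those not dim, and 3 of 6 arrays correlated best with their own number. The labels give no pairing, so whether the numbers pair the arrays is not settled.

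Settings added after seeing the data varied the replicate 3 fit. Leaving out replicate 1, 2 or 3 of normal sodium gave 541, 392 and 3644 called probe sets, and of low sodium 485, 380 and 3684, with 0 to 3 members and 1 to 8 other calcium genes among them. Replicates 1 and 2 alone with a trended prior gave 3714, 3 and 8, a filter at the 50th percentile 2575, 4 and 6, a pseudocount of 16 gave 1720, 4 and 4, and quantile normalisation 2107, 4 and 5. The cause of these shifts was not tested.

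Values without 1 array below come from the plain fit, with the same-numbered array of the other medium still in its group mean. Signs of uncalled differences turned as follows. Atp2a2 was -0.0023 with quantile normalisation (under either fit), -0.109 in replicates 1 and 2 (with either prior), -0.0615 with array weights and -0.148 to 0.140 without 1 array, and by other probe sets -0.853 and -0.565. Atp2b4 was 0.271 in replicates 1 and 2, 0.129 with array weights and -0.867 to 0.225 without 1 array. Slc8a1 was 0.322 and 0.294 by other probe sets and -0.343 to 0.204 without 1 array. Itpr2 was -0.543, -0.225 and -0.0348 by other probe sets and -0.313 to 0.568 without 1 array. Without 1 array the range was -0.0373 to 0.0916 for Atp2a3, -0.0156 to 0.764 for Itpr3, -0.0528 to 1.28 for Slc24a3 and -0.0233 to 0.425 for Rcn1. Itpr3, Slc24a3 and Rcn1 were nevertheless higher in low sodium at all 3 replicate numbers. Differences that kept their sign but shrank by over 1.5 times when 1 array was left out included Orai3 (-0.150), Atp2c1 (0.110), Trpv4 (0.471) and Stim1 (-0.394) without normal-sodium replicate 3, Plcb3 (-0.302) without low-sodium replicate 3, Cracr2b (0.112) without normal-sodium replicate 2, Atp2b3 (0.0269) without low-sodium replicate 2 and Slc8b1 (-0.0164) without low-sodium replicate 1. Of all single-gene values under alternatives, 570 kept direction and side of the threshold, 51 passed where the plain fit did not, 26 turned sign and 6 moved. Of those 6, all from replicate 3 alone, 2 also turned sign (Slc8b1 0.211, Atp2a3 -0.0889).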
